A study of Mus musculus with 12 samples.

Results

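The 10 genes of macrophage lipid handling described here were followed through the 6 groups of the study. They were chosen by name as genes of the LXR and PPAR pathways that act in cholesterol efflux and lipid storage: Nr1h3, Abca1, Abcg1, Mylip, Apoe, Lpl, Pparg, Plin2, Fabp4 and Fabp5. No measured value entered the rule, although earlier results of these data were known when the genes were chosen. All 10 were found among the 48795 genes counted, and all 10 were among the 11228 genes that passed the filter on low counts. RNA from bone marrow-derived macrophages (BMDMs), cells grown from mouse bone marrow with the growth factor M-CSF, was sequenced in 12 libraries, 2 for each group. The WT cells carried the strain label C57BL/6, named as C57BL/6NJ in the study's methods, and the Acod1-/- cells, which lack the enzyme that makes itaconate, carried the label C57BL/6NJ-Acod1em1(IMPC)J/J. Cells of each genotype received vehicle, or particulate matter (PM, an urban dust) at 20 µg/cm2 for 24 hours, or 4-octyl itaconate (OI, a cell-permeable form of itaconate) at 0.25 mM for 2 hours before the same PM. No group with OI and without PM was analysed here, so each OI comparison is between PM-treated cells. Both genotypes were thus on the NJ background but came from separate stocks, so the knockout and other differences between the stocks cannot be told apart.

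LXR and PPAR are nuclear receptors that bind DNA together with RXR. LXR is switched on by oxidised forms of cholesterol and raises the genes that remove cholesterol from the cell, and PPARs are switched on by fatty acids and raise the genes that take up, carry, store and burn them. Macrophages, which take up lipoproteins and dead cells, depend on both. Nr1h3 encodes LXR alpha and Pparg encodes PPAR gamma. Abca1 and Abcg1 encode transporters that move cholesterol out to lipoproteins, Apoe encodes a secreted apolipoprotein that accepts it, and Mylip encodes a ligase that marks the LDL receptor for degradation. Lpl encodes the lipase that frees fatty acids from lipoproteins, Plin2 encodes a coat protein of lipid droplets, and Fabp4 and Fabp5 encode carriers of fatty acids inside the cell.

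Between 33616577 and 36817898 counts were assigned to genes in a library. All 8 macrophage markers passed the filter, while 0 of 6 adipocyte markers did. The adipocyte markers, of interest because adipocytes also express Lpl, Plin2, Pparg and Fabp4, summed to between 0.0294 and 0.271 normalized CPM in a library, with Lep and Cfd at 0 counts throughout. Acod1 itself rose from 1.84 and 2.49 normalized CPM with vehicle to 181 and 170 with PM in the WT libraries, and from 1.26 and 1.22 to 108 and 94.1 in the libraries labelled Acod1-/-. Its level in the latter was not called lower with PM (log2 fold change -0.80, adjusted p = 0.0807). Counts per gene do not separate the deleted part from the rest, so Acod1 does not check the genotype label. The 2 WT libraries given PM, and the 2 given OI and PM, differed from each other more than other pairs did, with a chi-square per degree of freedom of 27.3 and 58.5 against 2.61 to 8.32 in the other groups. In those pairs the difference between replicates followed gene length across genes, with a Spearman correlation of 0.60 and 0.61 over 11214 genes that are not independent. For WT cells with vehicle the correlation was 0.28. In Acod1-/- cells it was -0.077 with vehicle, -0.36 with PM and 0.29 with OI and PM. Abca1, whose exons cover 10363 bases, differed between the WT replicates by 0.54 with PM and by 0.58 with OI and PM on the log2 scale.

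Promoter sequences from RefSeq (GRCm38.p6) were matched for 6 of the 10 genes, Nr1h3, Abca1, Mylip, Apoe, Pparg and Plin2, with 11 windows in all. Abcg1, Lpl, Fabp4 and Fabp5 had no entry. Each window of 300 bases was searched on both strands for paired core sites GGTNA with 5 bases between them, the spacing of the DR4 element that LXR-RXR binds. The same core sites with 2 bases between them, the spacing of the DR1 element that PPAR-RXR binds, were also searched, as were the single hexamer AGGTCA, the antioxidant element TGACNNNGC and the AP-1 motif TGANTCA. The single match to the DR4-like pattern lay in the Abca1 window, at bases -67 to -53 from the start on the opposite strand, and 0.719% of 32817 mouse promoter windows held one. The hexamer was found in the Plin2 window and in 2 Pparg windows, and in 16.3% of all windows. An antioxidant element was found in 1 Pparg window, and in 12.4% of all. DR1-like pairs (1.11% of all windows) and AP-1 motifs (7.81%) were not matched in these 11 windows. The promoters of 3 genes are printed from the first upstream base to the base before the start: Abca1, which fell furthest with OI, and Mylip and Plin2, which rose. Capitals mark the DR4-like match in Abca1, at chr4:53159896-53160145 on the minus strand, and the hexamer in Plin2, at chr4:86670060-86670309 on the minus strand. The Mylip stretch, at chr13:45389492-45389741 on the plus strand, holds no match. A match is a run of letters, not a measured binding site.
Abca1: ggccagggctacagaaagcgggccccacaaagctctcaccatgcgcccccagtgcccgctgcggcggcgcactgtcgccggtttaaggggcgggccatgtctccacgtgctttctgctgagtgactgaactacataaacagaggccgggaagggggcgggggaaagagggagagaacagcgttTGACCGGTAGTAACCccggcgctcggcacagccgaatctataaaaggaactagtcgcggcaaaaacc
Plin2: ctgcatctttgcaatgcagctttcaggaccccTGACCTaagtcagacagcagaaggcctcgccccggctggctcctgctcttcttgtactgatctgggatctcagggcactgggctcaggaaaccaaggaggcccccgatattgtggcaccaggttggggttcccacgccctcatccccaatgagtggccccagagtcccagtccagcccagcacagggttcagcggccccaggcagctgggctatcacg
Mylip: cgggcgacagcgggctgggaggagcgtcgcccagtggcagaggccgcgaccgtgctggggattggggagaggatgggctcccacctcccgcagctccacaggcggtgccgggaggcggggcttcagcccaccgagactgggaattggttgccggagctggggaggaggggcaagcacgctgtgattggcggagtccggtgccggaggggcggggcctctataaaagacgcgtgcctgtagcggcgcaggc

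Per kilobase of transcript, the group means of the 10 genes fell into 3 tiers in every group. Lpl, Apoe and Plin2 were each at 1250 normalized CPM per kb or above, Fabp5 and Fabp4 lay between 62.0 and 230, and the other 5 genes were at 24.6 or below. In vehicle-treated WT cells the levels per kb were 2256 for Lpl, 2091 for Apoe, 1621 for Plin2, 173 for Fabp5 and 104 for Fabp4. The lowest tier there was led by Pparg at 24.6, followed by Abcg1 at 13.4, Nr1h3 and Abca1 both at 12.8, and Mylip at 8.48. The libraries of Abcg1, Nr1h3 and Abca1 overlapped, so their order is not resolved. With PM in WT cells, Apoe and Plin2 overlapped as well, at 1679 to 1951 and 1659 to 1930. With OI and PM, Plin2 stood above Apoe in both genotypes, at 2560 against 1438 in WT cells and 1962 against 1250 in Acod1-/- cells. In those groups Abca1 was the lowest of the 10, at 0.751 and 1.31 per kb.

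**Figure D1:**
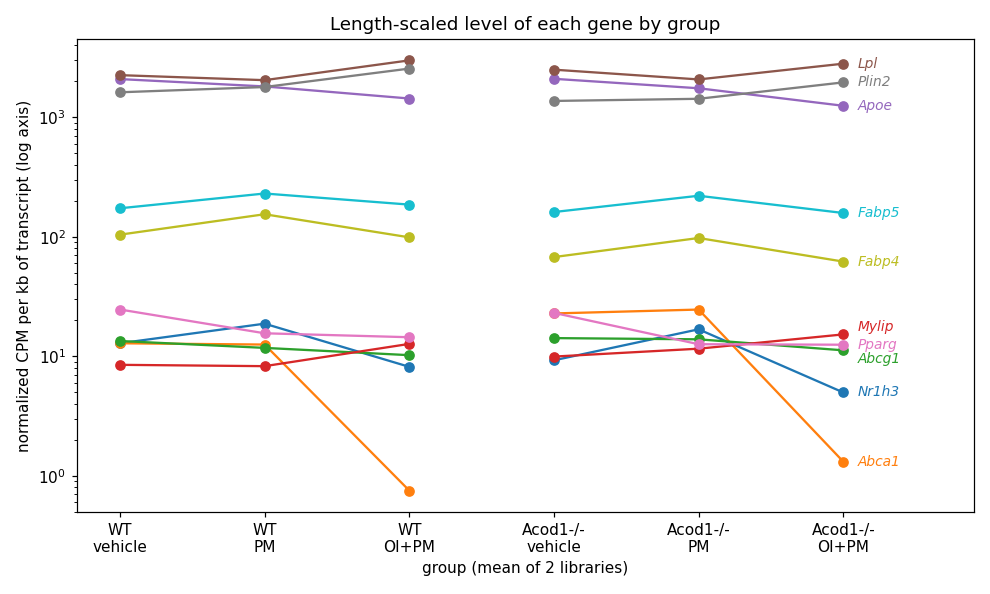
Mean level of each gene per group in normalized CPM per kb of its principal transcript, on a log axis, with 2 libraries a group and lines joining the treatments within a genotype. Abca1 drops to 0.751 (WT) and 1.31 (Acod1-/-) with OI and PM, while Lpl, Plin2 and Apoe stay at 1250 or above.

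The question of the OI comparison is what OI adds in cells that also receive PM. Among the members, 5 were called lower and 3 higher in WT cells, where called means an adjusted p of 0.05 or less in edgeR's quasi-likelihood test, and the same split of 5 and 3 was found in Acod1-/- cells. Over all 11228 genes tested, 22.6% were called lower and 21.3% higher in WT cells, and 20.6% lower and 13.9% higher in Acod1-/- cells. The cholesterol exporter Abca1 (chr4:53030787-53159895, minus strand, GRCm38) fell furthest. It stood at 152 and 105 normalized CPM with PM and at 9.25 and 6.16 with OI and PM in WT cells, from 309 and 182 counts. It stood at 245 and 260 with PM and at 12.9 and 14.0 with OI and PM in Acod1-/- cells. Every OI library lay far below every other library of the series, with no overlap. The log2 fold changes were -4.05 (SE 0.219, adjusted p = 2.66e-07) in WT cells, a fall of 16.6-fold, and -4.23 (SE 0.214, adjusted p = 1.67e-07) in Acod1-/- cells, a fall of 18.8-fold. Without any 1 library the WT value lay between -4.38 and -3.77, and with a correction for gene length it was -3.95.

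Nr1h3, the gene of LXR alpha (chr2:91184061-91202834, minus strand), fell together with Abca1 but by less. It stood at 33.7 and 39.6 normalized CPM with PM and 14.3 and 17.6 with OI and PM in WT cells. In Acod1-/- cells it stood at 35.3 and 30.4, and at 10.4 and 9.09. The groups did not overlap in either genotype, and the log2 fold changes were -1.20 (SE 0.128, adjusted p = 3.9e-05) and -1.76 (SE 0.133, adjusted p = 3.32e-06). Exons of Nr1h3 share 34 bases with those of Gm13783, and the strand setting of the counting is not given in the sources used here.

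Abcg1, the partner of Abca1 in cholesterol export (chr17:31057675-31117988, plus strand), was not called in either genotype. It stood at 72.7 and 64.4 normalized CPM with PM and at 66.5 and 52.6 with OI and PM in WT cells, where the groups overlapped. In Acod1-/- cells it stood at 81.4 and 80.3, and at 65.7 and 65.1, without overlap. The log2 fold changes were -0.20 (95% interval -0.47 to 0.06, adjusted p = 0.154) and -0.31 (interval -0.57 to -0.04, adjusted p = 0.0505). The Acod1-/- value was called lower in DESeq2 (adjusted p = 0.0484). It stayed uncalled in 7 of 16 alternatives and was called lower in the others, so its call depends on the setting. Without WT replicate 1 of OI and PM the WT value was -0.38. On leaving out any 1 library the WT value lay between -0.38 and -0.04. It was called with the replicate numbers fitted as a block within the WT libraries alone (-0.21, adjusted p = 0.012). Both 95% intervals lie far from the value of Abca1.

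Mylip, the ligase for the LDL receptor (chr13:45389742-45412022, plus strand), moved the other way. It stood at 26.3 and 24.4 normalized CPM with PM and 41.8 and 36.0 with OI and PM in WT cells, and at 33.9 and 37.0, and 47.0 and 46.5, in Acod1-/- cells. All OI libraries were above the PM libraries of their genotype, with log2 fold changes of 0.62 (SE 0.0862, adjusted p = 0.000261) and 0.40 (SE 0.0848, adjusted p = 0.0046). Apoe, the secreted apolipoprotein (chr7:19696109-19699188, minus strand), fell from 2363 and 2747 normalized CPM to 1911 and 2138 in WT cells, and from 2462 and 2471 to 1697 and 1823 in Acod1-/- cells. The groups did not overlap, and the log2 fold changes were -0.34 (SE 0.0827, adjusted p = 0.00851) and -0.49 (SE 0.0828, adjusted p = 0.00114). The WT fall in Apoe missed the threshold without WT replicate 2 of PM (-0.22, adjusted p = 0.0589).

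Among the genes of fatty acid uptake and storage, Lpl and Plin2 rose with OI while both fatty acid binding proteins fell. Lpl (chr8:68880491-68907448, plus strand) had the highest normalized CPM of the 10. It stood at 8403 and 8451 with PM and 11930 and 12750 with OI and PM in WT cells. The Acod1-/- libraries stood at 8795 and 8296, and at 11360 and 11790. The groups were well apart, with log2 fold changes of 0.55 (SE 0.0597, adjusted p = 4.54e-05) and 0.44 (SE 0.0596, adjusted p = 0.000247). Plin2, the lipid droplet coat protein (chr4:86648386-86670060, minus strand), rose from 3132 and 3644 to 4310 and 5356 in WT cells, and from 2783 and 2618 to 3717 and 3690 in Acod1-/- cells. Its log2 fold changes were 0.51 (SE 0.1, adjusted p = 0.00235) and 0.46 (SE 0.0999, adjusted p = 0.00531).

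Fabp4 (chr3:10204088-10208576, minus strand) fell from 128 and 149 normalized CPM to 83.8 and 93.5 in WT cells, and from 88.8 and 86.3 to 54.1 and 57.1 in Acod1-/- cells. The groups did not overlap, and the log2 fold changes were -0.64 (SE 0.0848, adjusted p = 0.000177) and -0.66 (SE 0.0856, adjusted p = 0.000186). Fabp5, its close relative (chr3:10012548-10016607, plus strand), fell from 211.7 and 243 to 172 and 195.2 in WT cells and from 225 and 210 to 156 and 156 in Acod1-/- cells. Its log2 fold changes were -0.31 (SE 0.0825, adjusted p = 0.0127) and -0.48 (SE 0.0827, adjusted p = 0.00124), and the WT value missed the threshold without WT replicate 2 of PM (-0.21, adjusted p = 0.0833). The Fabp5 pseudogene Fabp5l2 held 3 counts in all 12 libraries together. The treatment of multimapping reads is not given, so this count does not show whether reads of Fabp5 were lost. Pparg (chr6:115360951-115490399, plus strand) was not called in either genotype. It stood at 26.7 and 28.3 normalized CPM with PM and 25.9 and 25.1 with OI and PM in WT cells, and at 22.8 and 21.8, and 22.4 and 21.8, in Acod1-/- cells. Its log2 fold changes were -0.11 (95% interval -0.28 to 0.06) and -0.01 (interval -0.18 to 0.16). Scaled by total counts, the WT value of Pparg was called (-0.24, adjusted p = 0.0258). Fitted on the WT libraries with PM and with OI and PM alone, the calls of Apoe, Plin2 and Fabp5 in WT cells were lost (adjusted p = 0.107, 0.0695 and 0.151).

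**Figure D2:**
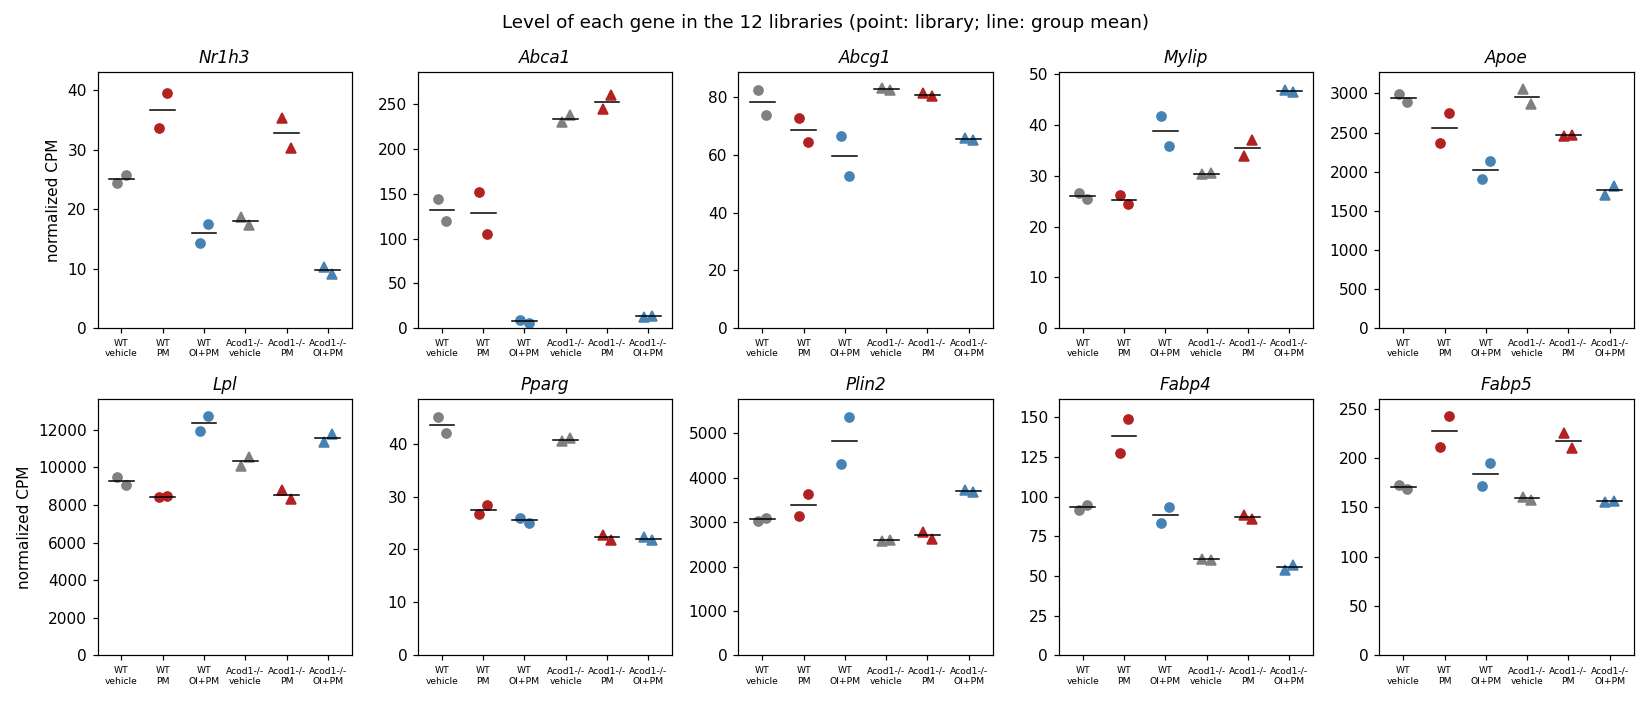
Normalized CPM of each gene in the 12 libraries on axes that start at 0 (circles WT, triangles Acod1-/-; grey vehicle, red PM, blue OI and PM; short line, mean of 2 libraries). The blue points of Abca1 lie at 6.16 to 14.0 and every other point of that gene at 105 or above, whereas blue points of Mylip, Lpl and Plin2 are above the red ones of the same genotype.

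In bulk RNA, fewer cells of a type and less RNA per cell cannot be told apart. Sums of cell type markers differed between PM and OI with PM. The 8 neutrophil markers summed to 13.1 and 19.4 normalized CPM as the lower and higher library with PM, and to 29.5 and 61.0 with OI and PM, in WT cells. In Acod1-/- cells they summed to 19.7 and 20.2, and to 34.0 and 34.3. The rise was that of S100a8, which macrophages can also express, with group means going from 12.6 to 44.6 in WT and from 12.8 to 32.1 in Acod1-/- cells. Most other neutrophil markers went the other way. S100a9 went from 1.71 to 0.446 and Ngp from 0.99 to 0.107 in WT cells, and from 3.27 to 1.03 and from 2.1 to 0.561 in Acod1-/- cells. Of the 3 neutrophil markers tested, 1 was called higher and 2 lower in each genotype. The 2 called lower, S100a9 and Ngp, entered the test through groups with PM alone, where they are highest. Their lower calls are therefore not read as a result. Ly6g, the defining marker, reached at most 1 count. The 8 macrophage markers summed to 23200 and 26700 with PM and 14400 and 16500 with OI and PM in WT cells, and to 24400 and 27200, and 15000 and 15400, in Acod1-/- cells. Most of that sum was Lyz2, at a mean of 19500 with PM and 10800 with OI and PM in WT cells. In each genotype 6 of the 8 were called lower, while Cd68 went from 1540 to 1780 in WT cells, the 1 called higher there, and Itgam from 572 to 523. Lower sums with OI were also found for endothelial markers (2.31 and 2.51 to 0.812 and 0.839 in WT cells, 1.68 and 2.13 to 0.739 and 1.14 in Acod1-/- cells) and for stromal markers (1.24 and 1.43 to 0.271 and 0.599, and 2.38 and 2.39 to 0.493 and 1.11). The osteoclast markers went from 22.8 and 25.7 to 15.4 and 18.5, and from 27.0 and 29.3 to 22.4 and 22.5. The part of these shifts in the results for the 10 genes was not tested.

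The comparison of PM with vehicle asks what the particles do alone, and Abca1 was not among the members called. In WT cells, 3 members were called higher (12.6% of all genes) and 1 lower (12.2% of all genes). In Acod1-/- cells, 3 were called higher (12% of all genes) and 3 lower (11.9% of all genes). Pparg fell in both genotypes. It stood at 44.9 and 42.1 normalized CPM with vehicle and 26.7 and 28.3 with PM in WT cells, and at 40.4 and 41.1, and 22.8 and 21.8, in Acod1-/- cells. The vehicle libraries were all above the PM libraries, with log2 fold changes of -0.66 (SE 0.0677, adjusted p = 8.98e-05) and -0.87 (SE 0.0686, adjusted p = 1.27e-05).

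The other nuclear receptor gene, Nr1h3, rose with PM. Its vehicle libraries stood at 24.5 and 25.7 normalized CPM in WT cells and at 18.8 and 17.4 in Acod1-/- cells, below the PM values given above. The log2 fold changes were 0.54 (SE 0.123, adjusted p = 0.0111) and 0.86 (SE 0.126, adjusted p = 0.000791). The WT call was lost without either vehicle library or without WT replicate 2 of PM (adjusted p = 0.0921, 0.0566 and 0.0906). Fabp4 rose from 91.9 and 94.8 normalized CPM in WT cells and from 60.9 and 60.3 in Acod1-/- cells, by 0.57 (SE 0.0845, adjusted p = 0.001) and 0.53 (SE 0.0853, adjusted p = 0.00144) on the log2 scale. Fabp5 rose from 173 and 169, and from 161 and 157, by 0.41 (SE 0.0825, adjusted p = 0.00604) and 0.45 (SE 0.0826, adjusted p = 0.00314). The WT rise in Fabp5 missed the threshold without replicate 2 of vehicle (adjusted p = 0.0547).

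Lpl and Apoe were also called lower with PM in Acod1-/- cells. Lpl went from 10080 and 10550 normalized CPM to 8795 and 8296 (log2 fold change -0.27, SE 0.0595, adjusted p = 0.00856). Apoe went from 3052 and 2867 to 2462 and 2471 (-0.26, SE 0.0826, adjusted p = 0.0443). The Lpl call was lost with a correction for gene length (-0.08, adjusted p = 0.63) and without replicate 2 of either group (adjusted p = 0.0832 and 0.0698). The Apoe call was lost without any 1 of the 4 libraries (adjusted p = 0.101 to 0.234), while with the length correction its value was -0.40 (adjusted p = 0.000306). In WT cells the values were -0.14 (adjusted p = 0.11) for Lpl and -0.20 (adjusted p = 0.095) for Apoe. Both were called when scaled by total counts (-0.23, adjusted p = 0.00679, and -0.30, adjusted p = 0.0138). With the length correction Apoe was called lower in WT cells (-0.39, adjusted p = 0.000478), whereas Lpl lay at 0.09 (adjusted p = 0.61). On leaving out any 1 library, the WT value of Apoe lay between -0.32 and -0.10. Abca1 stood at 144 and 119 normalized CPM with vehicle in WT cells and at 230 and 238 in Acod1-/- cells. Its log2 fold changes with PM were -0.03 (95% interval -0.48 to 0.41) and 0.11 (interval -0.34 to 0.55). Without any 1 library the WT value lay between -0.33 and 0.21, and with the length correction the values were 0.17 (adjusted p = 0.263) and 0.29 (adjusted p = 0.0665). Abcg1, Mylip and Plin2 were not called either, with log2 fold changes between -0.19 and 0.22, although Mylip was called higher in Acod1-/- cells when fitted on the compared groups alone (0.23, adjusted p = 0.0117).

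Marker sums differed between vehicle and PM as well. The macrophage markers summed to 14600 and 14700 normalized CPM with vehicle in WT cells and to 14300 and 14400 in Acod1-/- cells, below the PM sums given above. Lyz2 again made up most of the difference (9990 to 19500 in WT and 9130 to 19600 in Acod1-/- cells), and 4 of the 8 were called higher and 1 lower in each genotype. The neutrophil markers summed to 6.47 and 6.65 with vehicle in WT cells and to 6.86 and 7.35 in Acod1-/- cells, also below their PM sums. Of those tested, 2 of 3 were called higher in each genotype. As given above, S100a9 and Ngp entered the test through groups with PM alone, where they are highest, so this count is not read as a result. Osteoclast markers, nearly all of them counts of Ctsk, summed to 9.11 and 10.4 with vehicle and 22.8 and 25.7 with PM in WT cells, and to 12.4 and 12.9, and 27.0 and 29.3, in Acod1-/- cells. In WT cells the endothelial sum went from 1.63 and 1.68 to 2.31 and 2.51, the stromal sum from 1.87 and 2.6 to 1.24 and 1.43 and the adipocyte sum from 0.0764 and 0.0802 to 0.144 and 0.2. In Acod1-/- cells these went from 2.39 and 2.68 to 1.68 and 2.13, from 1.78 and 2.0 to 2.38 and 2.39 and from 0.0547 and 0.0555 to 0.0294 and 0.0863. The part of these sums in the PM results was not tested.

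**Figure D3:**
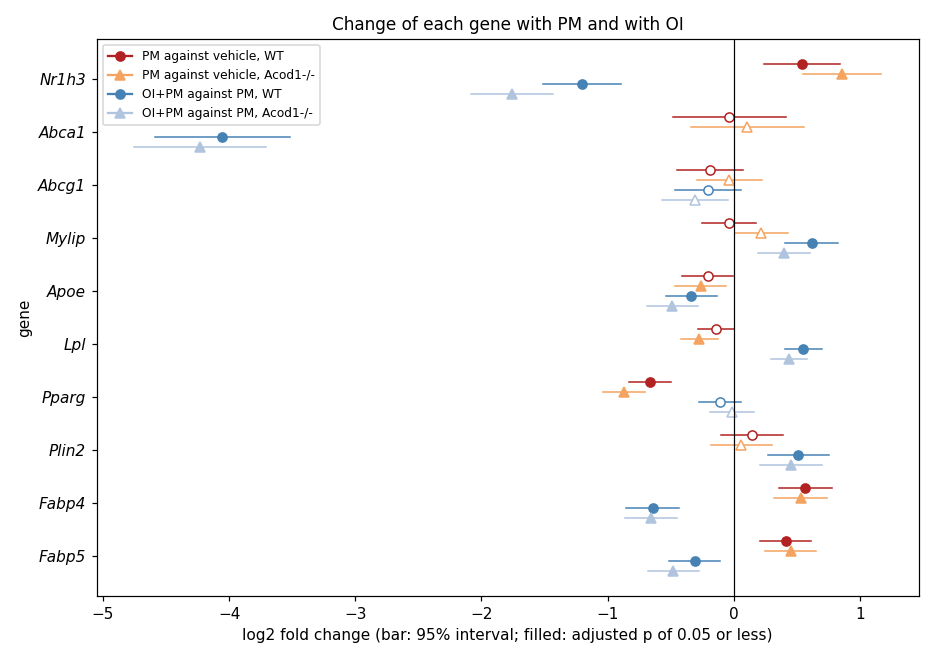
Log2 fold change of each gene with PM against vehicle and with OI and PM against PM, in WT and Acod1-/- cells, with 95% intervals and filled points where the adjusted p was 0.05 or less. Abca1 lies at -4.05 and -4.23 for OI and next to 0 for PM, and Nr1h3, Fabp4 and Fabp5 lie above 0 for PM and below 0 for OI.

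Set against vehicle, cells given OI and PM had 5 members called lower and 3 higher in each genotype. The shares over all genes were 31.9% lower and 33.6% higher in WT cells, and 26.7% lower and 22.7% higher in Acod1-/- cells. These comparisons share the OI libraries with those above. Abca1 lay at log2 fold changes of -4.09 and -4.12. Pparg lay at -0.77 and -0.89, Nr1h3 at -0.66 and -0.89, and Apoe at -0.54 and -0.75, all called lower. Abcg1 was called lower here as well, at -0.39 (SE 0.107, adjusted p = 0.00933) in WT cells and -0.34 (SE 0.107, adjusted p = 0.0242) in Acod1-/- cells. Fitted on the compared groups alone, the WT value missed the threshold (-0.41, adjusted p = 0.0844). The Abcg1 call was lost in WT cells without replicate 1 of vehicle (adjusted p = 0.0777) and in Acod1-/- cells without any 1 of the 4 libraries (adjusted p = 0.0887 to 0.107). Plin2 (0.66 and 0.52), Mylip (0.58 and 0.62) and Lpl (0.41 and 0.17) were called higher. The WT values that moved by more than 1.5 times under total count scaling stayed called, at 0.19 for Lpl, 0.43 for Plin2, 0.36 for Mylip and -0.61 for Abcg1. With the length correction the WT values were 0.76 for Lpl, -0.81 for Apoe and -0.20 for Abcg1, all called, and the Acod1-/- value of Lpl was 0.37. Without WT replicate 2 of OI and PM, Abcg1 lay at -0.23. The Lpl value of Acod1-/- cells missed the threshold without any 1 of the 4 libraries (adjusted p = 0.0781 to 0.214), and scaled by total counts it was 0.018 (adjusted p = 0.775). That Lpl value also missed the threshold with the replicate numbers fitted as a block (0.17, adjusted p = 0.0518). The same held with CPM above 1.5 required in all libraries (0.14, adjusted p = 0.0713). Fabp4 and Fabp5 were not called, at -0.07 and 0.10 in WT cells and -0.13 and -0.03 in Acod1-/- cells. Scaled by total counts, Fabp4 was called lower in both genotypes (-0.30, adjusted p = 0.00628, and -0.27, adjusted p = 0.0132), and Fabp5 in WT cells lay at -0.12 (adjusted p = 0.145). The Fabp4 value of Acod1-/- cells was also called when fitted on the compared groups alone (-0.11, adjusted p = 0.0274).

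The genotype comparison asks whether the Acod1-/- label goes with other levels under the same treatment. Fabp4 was called lower in the libraries labelled Acod1-/- under all 3 treatments. It stood at 91.9 and 94.8 normalized CPM in WT cells and 60.9 and 60.3 in Acod1-/- cells with vehicle, and at 128 and 149 against 88.8 and 86.3 with PM. With OI and PM it stood at 83.8 and 93.5 against 54.1 and 57.1. The genotypes did not overlap under any treatment, and the log2 fold changes were -0.62 (SE 0.0852, adjusted p = 0.00514), -0.66 (SE 0.0847, adjusted p = 0.00334) and -0.67 (SE 0.0857, adjusted p = 0.00263). With vehicle the adjusted p rose to 0.0719, 0.0757 and 0.0806 without WT replicate 2, Acod1-/- replicate 1 and Acod1-/- replicate 2. The value itself stayed between -0.64 and -0.60.

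With vehicle, Fabp4 was the 1 member called lower (0.935% of all genes), and 0 were called higher by edgeR (0.891% of all genes), with 3 higher at an unadjusted p under 0.05 and 1 called higher by DESeq2. With PM, 2 members were called higher (1.1% of all genes) and 1 lower (1.3% of all genes). With OI and PM, 3 were called lower (4.45% of all genes) and 0 higher by edgeR (2.51% of all genes), with 2 higher at an unadjusted p under 0.05 and 1 called by DESeq2. Without WT replicate 1 of OI and PM, 8 members were called in that comparison, in a fit that called 48.6% of all genes against 6.96% with all libraries. Abca1 was the gene called higher by DESeq2 in both cases. Its Acod1-/- libraries lay above the WT libraries under each treatment, with log2 fold changes in edgeR of 0.83 with vehicle (adjusted p = 0.0603, SE 0.184), 0.97 with PM (adjusted p = 0.0249, SE 0.184) and 0.80 with OI and PM (adjusted p = 0.0549, SE 0.217). In DESeq2 the adjusted p was 0.00208 with vehicle and 0.0036 with OI and PM. With the replicate numbers fitted as a block it was 0.0378 and 0.0393 (log2 fold changes 0.84 and 0.81). The length correction gave 0.00235 and 0.0156. The vehicle value and the OI and PM value each stayed uncalled in 8 of 16 alternatives. On leaving out any 1 library the log2 fold change lay between 0.70 and 0.97 with vehicle, and between 0.54 and 1.13 with OI and PM. The edgeR call with PM was lost without WT replicate 2 (0.73, adjusted p = 0.133), Acod1-/- replicate 1 (adjusted p = 0.13) or Acod1-/- replicate 2 (adjusted p = 0.176). The replicates of Abca1 were further apart in WT than in Acod1-/- cells, as given above.

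Mylip was called higher with PM, at 33.9 and 37.0 normalized CPM in Acod1-/- cells against 26.3 and 24.4 in WT cells (log2 fold change 0.49, SE 0.0862, adjusted p = 0.0175). This call was lost without any 1 of the 4 libraries (adjusted p = 0.0564 to 0.168). Fitted on the compared groups alone, it was lost as well (adjusted p = 0.0588). The values of Mylip were 0.23 with vehicle (adjusted p = 0.353) and 0.26 with OI and PM (adjusted p = 0.0863). The OI and PM value lay between 0.16 and 0.38 on leaving out any 1 library. Nr1h3 was called lower with OI and PM (log2 fold change -0.71, SE 0.135, adjusted p = 0.0165), at 10.4 and 9.09 normalized CPM against 14.3 and 17.6. With vehicle its Acod1-/- libraries also lay below the WT libraries, at 18.8 and 17.4 against 24.5 and 25.7 (-0.47, adjusted p = 0.128). That value was called in DESeq2 (adjusted p = 0.0262) and with the length correction (adjusted p = 0.0163), but stayed uncalled in 10 of 16 alternatives. On leaving out any 1 library it lay between -0.53 and -0.42. With PM the genotypes overlapped for Nr1h3 (-0.16, adjusted p = 0.633). Plin2 was also called lower with OI and PM (-0.38, SE 0.0998, adjusted p = 0.0491), at 3717 and 3690 against 4310 and 5356. Without WT replicate 2, Acod1-/- replicate 1 or Acod1-/- replicate 2 of OI and PM, the adjusted p was 0.0601, 0.0847 and 0.142 for Nr1h3 and 0.173, 0.226 and 0.219 for Plin2. The Plin2 value was -0.22 without that WT library. Fitted on these groups alone, the calls of Nr1h3, Plin2 and Fabp4 with OI and PM were lost (adjusted p = 0.293, 0.373 and 0.203), and scaled by total counts the Plin2 value missed the threshold (-0.31, adjusted p = 0.0501). Pparg lay at -0.30 with PM (adjusted p = 0.0552), a value that DESeq2 called (adjusted p = 0.0248). Plin2 lay at -0.24 with vehicle (adjusted p = 0.425) and at -0.33 with PM (adjusted p = 0.15, or 0.042 with the length correction), and Abcg1, Apoe, Lpl and Fabp5 were not called under any treatment, at log2 fold changes between -0.23 and 0.24. Without WT replicate 1 of OI and PM, however, Abcg1 (0.31, adjusted p = 0.0164), Apoe (-0.28, adjusted p = 0.0191) and Fabp5 (-0.32, adjusted p = 0.00914) were called with OI and PM. The Abcg1 value there lay between -0.024 and 0.31 on leaving out any 1 library, against 0.13 with all. Fitted on the vehicle groups alone, Lpl (0.14, adjusted p = 0.00324) and Fabp5 (-0.11, adjusted p = 0.014) were called with vehicle, as were Plin2 (-0.25, adjusted p = 3.11e-07), Mylip (0.22, adjusted p = 0.00234), Nr1h3 (-0.48, adjusted p = 2.07e-07) and Abca1 (0.82, adjusted p = 1.78e-15), in a fit that called 20.6% of all genes.

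**Figure D4:**
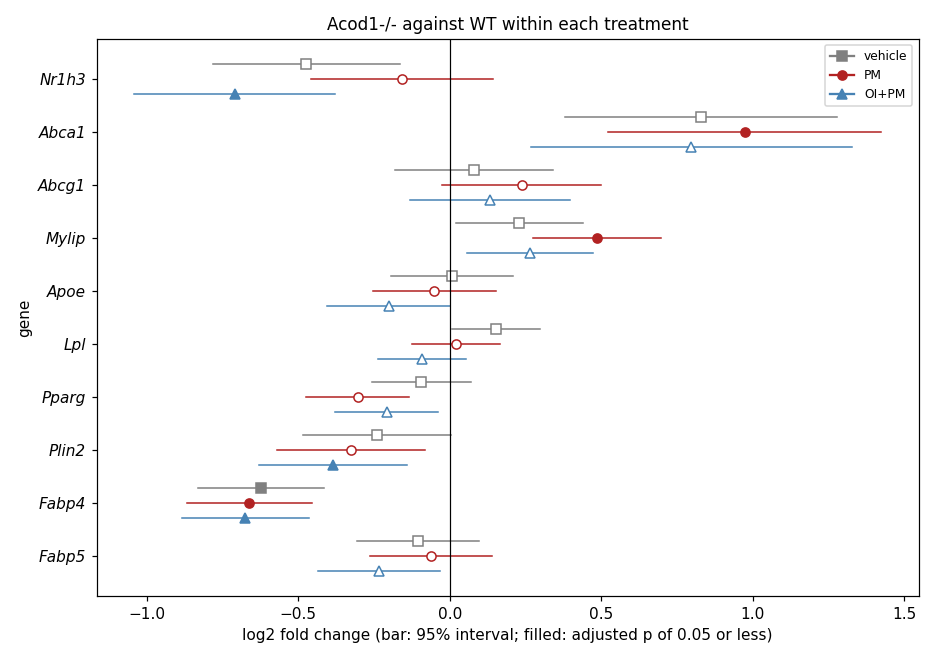
Log2 fold change of each gene in Acod1-/- against WT libraries within vehicle, PM, and OI and PM, with 95% intervals and filled points where the adjusted p was 0.05 or less. Fabp4 lies at -0.62, -0.66 and -0.67, and Abca1 at 0.83, 0.97 and 0.80 with wider intervals.

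Whether the genotypes differed in their response was tested with interaction terms. For PM, edgeR called 0 of 10 members and 0% of all genes, with 0 members and 273 genes at an unadjusted p under 0.05, and DESeq2 called 0 members and 3 genes. For OI, edgeR called 0 members and 0% of all genes, with 1 member and 717 genes at an unadjusted p under 0.05, and DESeq2 called 0 members and 34 genes. That member was Nr1h3, whose fall with OI was larger in Acod1-/- cells by a log2 difference of -0.55 (95% interval -0.999 to -0.106, adjusted p = 0.702). On leaving out any 1 library this difference for Nr1h3 lay between -0.70 and -0.40. For Abca1 the difference between genotypes in the OI response was -0.18 (interval -0.87 to 0.52).

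Other genes of the same pathways were counted in 5 lists that leave out the 10 members. The shares of all genes called after OI, to be read beside these counts, were 21.3% higher and 22.6% lower in WT cells and 13.9% higher and 20.6% lower in Acod1-/- cells. After OI in WT cells, 12 of 18 tested PPAR targets were called higher and 3 lower, with a median log2 fold change of 0.42 beside 0.02 over all genes. For Acod1-/- cells, 8 were higher and 3 lower, with a median of 0.25 beside -0.00056. Angptl4, the secreted inhibitor of lipoprotein lipase, rose from 26.2 to 115 normalized CPM in WT cells (log2 fold change 2.13, SE 0.1, adjusted p = 1.02e-07) and from 17.6 to 80.7 in Acod1-/- cells (2.20, SE 0.102, adjusted p = 9.32e-08). Aqp9, a glycerol channel, rose in WT cells from 1.35 to 5.99 (2.14, adjusted p = 7.92e-05) and also in Acod1-/- cells (1.29, adjusted p = 0.00514). Of the 5 libraries in which Aqp9 was above the filter on low counts, 4 were those with OI, and the filter asks for 2, so it entered the test only through the groups where it is high. It is 1 of the PPAR targets counted as higher in each genotype. Against this direction, Fabp3 went from 2.67 to 0.383 normalized CPM in WT and from 1.83 to 0.183 in Acod1-/- cells (-2.80 and -3.30, both called). It passed the filter on low counts only through the libraries with PM alone, where it is highest, so it could enter the test only as a gene that is higher there. Tgm2, a transglutaminase, also fell in both genotypes, with values of -1.71 in WT cells (adjusted p = 2.12e-07) and -2.37 in Acod1-/- cells (adjusted p = 2.95e-08), where it went from 146 to 28.4. The exons of Fabp3 and of Tgm2 overlap those of other genes, so their counts are uncertain.

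Of 13 tested genes of lipid droplets and lipases, 8 were called higher after OI in WT cells and 4 in Acod1-/- cells, with medians of 0.35 and 0.25 beside 0.02 and -0.00056 over all genes. In edgeR 0 were called lower in either genotype, with 0 and 1 lower at an unadjusted p under 0.05 and 0 in DESeq2. In WT cells Hilpda, an inhibitor of the main triglyceride lipase, rose from 62.6 to 166 normalized CPM (1.41, SE 0.181, adjusted p = 0.000146), and Pnpla2, that lipase itself, rose from 155 to 328 (1.08, SE 0.0667, adjusted p = 6.94e-07). In Acod1-/- cells the values were 0.95 (adjusted p = 0.00238) for Hilpda and 0.81 (adjusted p = 6.07e-06) for Pnpla2. The 4 called in Acod1-/- cells, named after their values were seen, were Plin3, Pnpla2, Abhd5 and Hilpda.

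Of 12 tested LXR targets, 6 were called lower and 2 higher after OI in WT cells (median -0.29), and 5 lower and 2 higher in Acod1-/- cells (median -0.19). Mertk, a receptor for dead cells that also stands among the 8 macrophage markers, fell from 72.6 to 33.7 normalized CPM in WT cells (-1.10, SE 0.184, adjusted p = 0.00089) and from 83.8 to 40 in Acod1-/- cells (-1.07, SE 0.183, adjusted p = 0.00118). The transporter Abcg2 (-1.10, adjusted p = 3e-06) and the secreted protein Cd5l (-1.01, adjusted p = 3.46e-06) fell at least 2-fold in WT cells and were also called lower in Acod1-/- cells (-0.67, adjusted p = 9.58e-05, and -0.80, adjusted p = 2.08e-05). The 2 called higher in both genotypes were Lpcat3 and Arl4c, named after their values were seen. Of 12 nuclear receptors and cofactors, 3 were called higher and 2 lower in WT cells (median -0.07), and 1 higher and 1 lower in Acod1-/- cells (median -0.08). Ppard, the gene of PPAR delta, rose in WT cells from 20.6 to 50 normalized CPM (1.28, SE 0.0848, adjusted p = 1.18e-06) and in Acod1-/- cells by 0.86 (adjusted p = 2.47e-05). Of 16 genes of cholesterol uptake, traffic and efflux, 2 were higher and 5 lower in WT cells and 3 higher and 5 lower in Acod1-/- cells, with medians of -0.09 and -0.14. The HDL receptor gene Scarb1 rose in WT cells (1.01, SE 0.0589, adjusted p = 4.77e-07) and in Acod1-/- cells (0.79, adjusted p = 2.95e-06), and Olr1, a receptor for oxidised LDL, fell in both genotypes (-1.53 and -1.20).

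**Figure D5:**
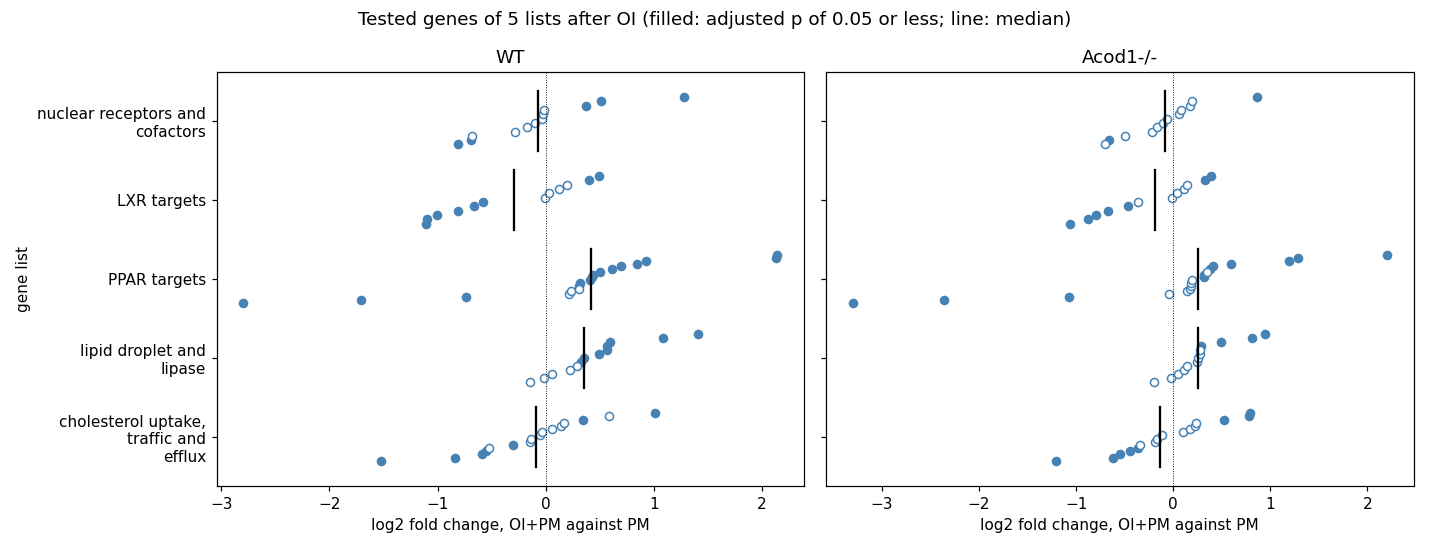
Log2 fold change with OI and PM against PM for the tested genes of 5 lists (12, 12, 18, 13 and 16 genes, top to bottom), in WT and Acod1-/- cells, with filled points where the adjusted p was 0.05 or less and a line at each median. The medians of PPAR targets (0.42 and 0.25) and of lipid droplet and lipase genes (0.35 and 0.25) lie above 0, and that of LXR targets (-0.29 and -0.19) below it.

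After PM, 12.6% of all genes were called higher and 12.2% lower in WT cells, and 12% higher and 11.9% lower in Acod1-/- cells. The lists held the following calls. Among WT cells, 4 LXR targets were called higher and 2 lower, as were 3 and 2 PPAR targets, 3 and 2 lipid droplet and lipase genes, 5 and 2 cholesterol genes, and 1 and 1 nuclear receptors and cofactors, with medians between -0.19 and 0.18. The counts in Acod1-/- cells were 3 and 2, 3 and 2, 4 and 1, 5 and 2, and 1 and 1 in that order, with medians between -0.14 and 0.12. Olr1 rose from 0.352 to 7.21 normalized CPM in WT cells and from 0.399 to 6.94 in Acod1-/- cells (log2 fold changes 4.34, adjusted p = 4.38e-06, and 4.11, adjusted p = 4.99e-06). Olr1 passed the filter on low counts only through the libraries with PM, with or without OI, where it is higher. Acsl1, which activates fatty acids, rose in Acod1-/- cells from 51.1 to 115 (1.17, SE 0.068, adjusted p = 1.73e-06) and in WT cells by 0.71 (adjusted p = 5.4e-05), though its exons overlap those of Gm45244. Fabp3 stood at 1.11 and 0.799 normalized CPM with vehicle in WT and Acod1-/- cells, with log2 fold changes of 1.27 and 1.19 to the PM levels given above, and the same limits hold.

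Between genotypes, the LXR targets with vehicle held several calls. There 5 of 12 LXR targets were called higher in the libraries labelled Acod1-/- (0.891% of all genes), and 0 lower in edgeR (0.935% of all genes, 1 target at an unadjusted p under 0.05, 0 in DESeq2). They were Scd2, Arl4c, Pltp, Abcg2 and Cd5l, named after their values were seen. With PM 2 were called higher (1.1% of all genes), Scd2 and Pltp. With OI and PM 4 were called higher (2.51% of all genes), Scd2, Pltp, Abcg2 and Cd5l, and Lpcat3 lower (4.45% of all genes). The medians of the list were 0.08, 0.12 and 0.17 in the 3 treatments, beside 0.01, 0.00023 and -0.03 over all genes. Exons of Pltp overlap those of Ctsa. With OI and PM, 6 of 18 PPAR targets were called lower in Acod1-/- cells (median -0.25), led by Aqp9 at 2.81 against 5.99 normalized CPM (-1.08, SE 0.227, adjusted p = 0.0236), and 0 higher in edgeR (1 at an unadjusted p under 0.05, 1 in DESeq2). There 3 of 13 lipid droplet and lipase genes were also called lower (median -0.17), Hilpda (-0.88, adjusted p = 0.0205), Dgat1 (-0.40, adjusted p = 0.0393) and Pnpla2 (-0.35, adjusted p = 0.0156), named after their values were seen. None of the 13 was called higher in edgeR, with 1 at an unadjusted p under 0.05 and 0 in DESeq2.

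For 4 of the members, the genes with the most similar profile over the 12 libraries were sought by Pearson's r of log2 normalized CPM, as a description of libraries that share treatments. Gpr65 (0.994), Ms4a6c (0.993) and Swap70 (0.991) were nearest to Abca1. Trmt1 (0.984), Tmem120a (0.983) and Aatf (0.983) were nearest to Plin2, and Gpr176 (0.984), Lrrc39 (0.983) and Slc37a2 (0.976) to Pparg. For Fabp4 the nearest were AA467197 (0.966), Slc46a1 (0.959) and Rabggta (0.943). The 4 members had no near gene in common.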

How the data were processed

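RNA was measured in 12 libraries of BMDMs in 6 groups of 2. Per the submitters' processing notes and methods, the authors aligned single-end reads to GRCm38 by STAR 2.5.3a, used FastQC 0.11.5 and Picard 2.9.0, and ran featureCounts. They deposited unnormalized gene counts. The annotation release, strand setting and treatment of multimapping reads are not given in the sources used here. Identifiers were matched to symbols through GENCODE M21, for 48435 of 48795 genes. The 10 members, the gene lists and the tests were chosen with earlier results of these data known. Genes with CPM above 1.5 in at least 2 libraries were tested in edgeR 4.0.16 (R 4.3.3) by the quasi-likelihood F test, after TMM scaling, with 6 group means and 6 residual degrees of freedom. P-values were adjusted by Benjamini-Hochberg over all 11228 genes tested. Normalized CPM are CPM on TMM-scaled library sizes. Standard errors are those implied by the F statistic. Named were all 10 members, up to 3 genes per list and comparison that were called and changed at least 2-fold, the 3 genes nearest to each of Abca1, Plin2, Pparg and Fabp4, and Acod1. Markers, the genes said to be named after their values were seen, and second-genotype values of named genes fall outside this rule. The labels do not say whether replicates came from separate animals or cultures, so p-values measure the spread between these samples, which may be technical. DESeq2 1.42.0, RLE and total count scaling, 3 other filters, a fit on the compared groups alone, a replicate block, a correction for gene length and leaving out each library were tried as alternatives.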

Additional observations from a re-analysis of the deposited data

How the results depend on the processing

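Of the values of single genes under an alternative, 1666 kept their direction and their side of the threshold, 74 gained a call, 52 lost one, and 48 values changed sign without being called in either setting. No called value changed sign in the alternatives run. Requiring a change of at least 2-fold as well left 0 members called with PM in WT (4.15% of all genes) and in Acod1-/- (4.5%). It left 0 for genotype with vehicle (0.481%), with PM (0.561%) and with OI and PM (0.917%). With OI, 2 were left in WT (10.8%) and 2 in Acod1-/- (9.83%). For OI and PM against vehicle, 1 was left in WT (16.1%) and 1 in Acod1-/- (13.1%). In the following, the share of all genes called in either direction by the same fit stands in brackets. Fitted on the compared groups alone, 5 members were called with OI in WT (17.3%), 7 for genotype with vehicle (20.6%) and 0 for genotype with OI and PM (0.0178%). For genotype with vehicle, where the edgeR fit of all libraries called 1 (1.83%), DESeq2 called 3 (2.73%), no filter on low counts 4 (1.72%), the correction for gene length 3 (3.36%), that correction with the replicate block 3 (3.28%) and the replicate block alone 2 (1.71%). For genotype with OI and PM, the length correction with the replicate block called 5 (16.9%) against 3 (6.96%). Leaving out 1 library leaves 1 library in a group, and members lost or gained calls in such fits in several comparisons. Counts of members called in these fits are not given here. Where no value is given for a cause, the cause was not tested.

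The labels do not say what a replicate number marks, and with 2 numbers the data do not settle it, so they were treated as numbers only. Same-numbered deviations correlated by 0.23, 0.24 and 0.73 between the WT groups, by -0.095 to -0.036 between the Acod1-/- groups and by -0.41 to 0.25 between genotypes. The difference between replicates had the same sign in all 3 groups for 6 of 10 members in WT and for 3 in Acod1-/- cells. Both of the following fits were added after seeing the data. With a replicate block within the WT libraries alone, 3 members were called for genotype with vehicle (3.81%), 6 with PM (6.8%) and 8 with OI and PM (30.4%). Abcg1 was called lower with OI in WT in that fit (-0.21, adjusted p = 0.012), as it was with PM in WT (-0.19, adjusted p = 0.0216), and Mylip was called higher with PM in Acod1-/- (0.22, adjusted p = 0.0227). The length correction with the replicate block called Abca1 higher with PM in Acod1-/- (0.29, adjusted p = 0.0475). With the numbers of Acod1-/- with PM exchanged in a replicate block over all libraries, 2 members were called for genotype with vehicle (2.19%) and 5 with OI and PM (16.7%). The replicate blocks moved the other counts of members called by at most 1.5 times. Under total count scaling the median log2 fold change of all genes was -0.11 for OI in WT, and -0.20 and -0.15 for OI and PM against vehicle in WT and Acod1-/-, beside 0.02, 0.02 and -0.0056 with TMM. With it, calls for OI in WT were 1413 higher and 3317 lower instead of 2391 and 2535, and for PM 1088 and 2027 in WT and 1085 and 1841 in Acod1-/- instead of 1414 and 1368, and 1344 and 1340. For OI in Acod1-/- they were 1137 and 2690 instead of 1564 and 2317, for genotype with OI and PM 412 and 359 instead of 282 and 500, and for OI and PM against vehicle 2283 and 5108 in WT and 1629 and 4110 in Acod1-/- instead of 3771 and 3579, and 2548 and 2999. Abca1 lay at -4.18 for OI in WT under this scaling.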
